A study of Oryctolagus cuniculus with 16 samples.

Results

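Hypoxia and glycolysis genes were followed across the vaginas of rabbits with and without surgery and grafting. A list of 10 gene symbols was looked up in the deposited count table: SLC2A1, HK2, PFKP, ALDOA, PGK1, ENO1, PKM, LDHA, BNIP3 and ADM. Of these, 6 (SLC2A1, HK2, PFKP, ALDOA, BNIP3 and ADM) are rows of the table, among 13001 named genes, and all 6 passed the filter on low counts with 10942 genes in all. PGK1, ENO1, PKM and LDHA have no row under these symbols and were not analysed here.

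Cells break glucose down to pyruvate in the cytosol, and glycolysis supplies ATP when oxygen is short. Low oxygen stabilises the hypoxia-inducible factors HIF-1 alpha and HIF-2 alpha, which switch on glucose transporters, most glycolytic enzymes, mitophagy genes and vascular signals. In healing wounds the same genes are also known to be high in dividing cells and in activated neutrophils and macrophages, and several of them are abundant in muscle.

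The 16 libraries of polyadenylated vaginal RNA came from female New Zealand White rabbits, juvenile at 17 to 19 weeks. Each library carries 1 animal number. The control group was native vagina without surgery (n = 6, animals 2, 9, 16, 24, 25 and 29) and the sham group had surgery without a graft (n = 3, animals 11, 12 and 14). The acellular group received a graft without cells (n = 3, animals 6, 8 and 10) and the PLATE group a graft carrying autologous tissue particles (n = 4, animals 1, 5, 9 and 13). Grafted vaginas were sampled 10 mm from the graft, so the values describe neighbouring tissue and not the graft itself. The labels give no sampling distance for control and sham tissue and no time after surgery, and the number 9 stands in both the control and the PLATE group without a statement on whether it is 1 animal.

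The libraries held 20992063 to 30695000 counts each, and named genes took 15348880 to 23236339 of them. Levels are given as CPM, the counts of a library divided by its total on named genes, after scaling by the trimmed mean of M-values (TMM), and brought to a common depth. The scaling factor of control 2 was 0.592, and those of the other 15 libraries lay between 0.917 and 1.15. The 9 smooth muscle markers in the table summed to 9507 to 159200 CPM, highest in control 2, so muscle RNA was present throughout. The 11 columnar epithelium markers summed to 18.9 CPM in control 2 and to 311 to 2216 CPM elsewhere. Macrophage and neutrophil markers summed to 8829 and 8660 CPM in PLATE 1, and to at most 1892 and 1231 CPM in any other library. B and plasma cell and cell cycle markers summed to 36580 and 463 CPM in PLATE 1, and to at most 11018 and 252 CPM elsewhere. In bulk tissue such as this, fewer cells of a type and less RNA per cell cannot be told apart.

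None of the 6 genes differed between groups past an adjusted p of 0.05 in edgeR's quasi-likelihood test with Benjamini-Hochberg adjustment over 10942 genes. This held in all 7 comparisons and in the joint test of the 4 groups, in each of which 0% of the tested genes were called. DESeq2 and limma voom likewise called none of the 6. DESeq2 gave no adjusted p for SLC2A1, HK2, BNIP3 and ADM in acellular against control, so it could not call them there. The values below are therefore a description of levels and their spread, with standard errors and 95% intervals that show how large a difference the data leave possible.

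**Figure D1:**
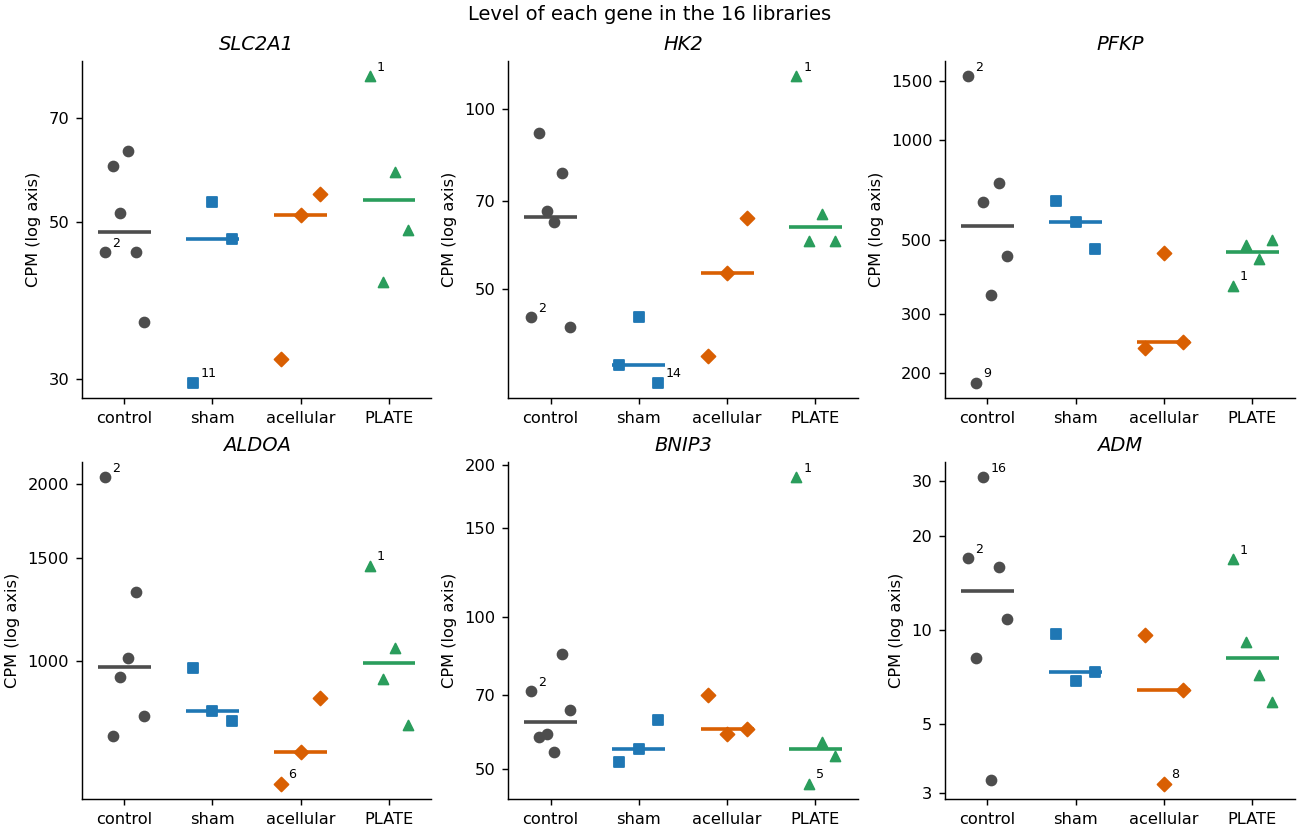
Level of each of the 6 genes in every library, in CPM on a log10 axis, with 1 point per library, grouped as control, sham, acellular and PLATE, and a bar at each group median; numbers name the animals. PLATE 1 stands highest for SLC2A1, HK2 and BNIP3 (80.1, 113.3 and 189 CPM), and control 2 highest for PFKP and ALDOA (1549 and 2053 CPM).

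SLC2A1 encodes GLUT1, the widely expressed transporter that brings glucose into the cell. In the control group it ran from 36.1 through a median of 48.4 to 62.9 CPM. The sham libraries held 29.7, 53.3 and 47.3 CPM, and the acellular libraries 31.97, 51.1 and 54.7 CPM. The PLATE libraries held 80.1, 41.1, 58.8 and 48.6 CPM. PLATE 1 was the highest library and sham 11 the lowest, and every pair of groups overlapped. Group means were 50.1 ± 10.0 CPM in control (SD, n = 6), 43.4 ± 12.3 in sham (n = 3), 45.9 ± 12.2 in acellular (n = 3) and 57.2 ± 16.9 in PLATE (n = 4). The order of means was thus PLATE, control, acellular, sham, with neighbours closer than 1 SD. The difference farthest from 0 was PLATE against sham, a log2 fold change of 0.40 ± 0.276 (SE) with a 95% interval from -0.20 to 1.00, which became 0.17 without sham 11 and 0.19 without PLATE 1.

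HK2 encodes hexokinase 2, the inducible, mitochondrion-bound enzyme that traps glucose in the cell as glucose 6-phosphate. Control libraries ran from 43.1 through a median of 66.0 to 91.2 CPM. The sham libraries held 37.2, 44.8 and 34.8 CPM and the acellular libraries 38.6, 53.1 and 65.6 CPM. PLATE 1 held 113.3 CPM, and PLATE 5, 9 and 13 lay between 59.97 and 66.7 CPM. All 3 sham libraries lay at or near the low end of the control range or below it, and all 4 PLATE libraries lay above all 3 sham libraries. Means were 64.9 ± 18.7 CPM in control (SD, n = 6), 38.9 ± 5.19 in sham (n = 3), 52.4 ± 13.5 in acellular (n = 3) and 75.0 ± 25.7 in PLATE (n = 4). PLATE and control, the top 2 of that order, were closer than 1 SD, as were control and acellular, and the acellular and sham ranges overlapped.

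HK2 in PLATE against sham was the comparison with the smallest p among the 6 genes. The log2 fold change was 0.94 ± 0.296 (SE), with a 95% interval from 0.30 to 1.59, an unadjusted p of 0.00594 and an adjusted p of 0.657 (edgeR's quasi-likelihood test). That p ranked 56 among the 10942 genes, and 7.5% of all genes had an unadjusted p under 0.05 in this comparison. Non-overlapping groups were seen in 14.9% of all genes and in 1 of the 6 members, a share near the background. Without PLATE 1 the log2 fold change was 0.68. Against control, sham HK2 was lower at -0.74 ± 0.276 (SE), with an unadjusted p of 0.0174 where 2.98% of all genes had one under 0.05, and an adjusted p of 0.963. PLATE against control stood at 0.21 ± 0.243, and at -0.06 without PLATE 1. Among the marker lists that moved with these values was the neutrophil list. Its 8 measured markers summed to 53.2 to 189 CPM in the sham libraries and to 297 to 8660 CPM in PLATE, which did not overlap either, while control ran from 177 to 1231 CPM and acellular from 48.2 to 564 CPM. The part of these markers in the HK2 values was not tested.

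The ratio of HK2 to HK1, the constitutive hexokinase, does not depend on library scaling and was compared as a log2 value. Sham libraries had log2 ratios of -2.13, -1.69 and -1.93, acellular libraries -1.25, -1.21 and -1.11, and PLATE libraries -0.48, -1.30, -1.13 and -1.08. Control libraries ran from -2.32 (control 2) to -0.21 (control 9), a range that took in every other library. All sham libraries thus lay below all acellular and all PLATE libraries. Single genes did not overlap in 18.3% of all genes for acellular against sham and in 14.9% for PLATE against sham. A share over ratios was not computed. The mean difference was 0.92 for PLATE against sham (exact two-sided permutation p = 0.0286, the smallest that 4 against 3 libraries allow; 0.4 after Benjamini-Hochberg adjustment over 14 ratio tests). For acellular against sham it was 0.73, with an exact permutation p of 0.1, again the smallest possible with 3 against 3, and an adjusted p of 0.467.

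**Figure D2:**
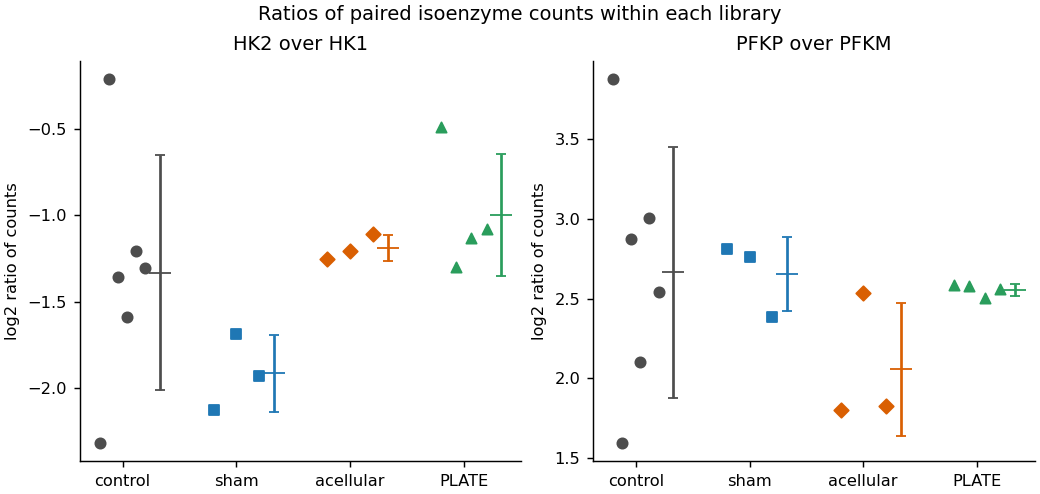
Log2 ratio of HK2 to HK1 and of PFKP to PFKM in each library, by group, with 1 point per library and the group mean with its SD beside the points. The sham libraries lie between -2.13 and -1.69 for HK2 over HK1, below the acellular and PLATE libraries, while for PFKP over PFKM the 4 PLATE libraries lie together between 2.50 and 2.58.

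PFKP encodes the platelet-type phosphofructokinase, which carries out the committed step of glycolysis. The RefSeq table of rabbit assembly mOryCun1.1 gives PFKM, the name of the muscle-type enzyme, as a synonym of its PFKP entry, while the count table has separate PFKP and PFKM rows. Which phosphofructokinase each row counts is therefore uncertain. Control libraries ran from 187 through a median of 550 to 1549 CPM. The sham libraries held 654, 567 and 471 CPM, the acellular libraries 237, 457 and 247 CPM, and the PLATE libraries 364, 483, 439 and 500 CPM. Control 9 was the lowest and control 2 the highest of all 16 libraries, so the control range held every other group. All 3 acellular libraries lay below all 3 sham libraries, as was so for 10.5% of all genes, where 18.3% did not overlap in either direction.

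Mean PFKP was 653 ± 483 CPM in control (SD, n = 6), 564 ± 91.6 in sham (n = 3), 446 ± 60.4 in PLATE (n = 4) and 314 ± 125 in acellular (n = 3). Each pair of neighbours in this order overlapped. Acellular against control gave a log2 fold change of -1.06 ± 0.49 (SE) with an unadjusted p of 0.0474, where 6% of all genes had one under 0.05, and an adjusted p of 0.827. Control 2 decided much of that value, which was -0.58 without it. In edgeR's quasi-likelihood test the adjusted p was 0.926 without control 2 and 0.336 without control 9, the lowest library. PLATE against control was -0.55, and -0.10 without control 2, and sham against control was -0.21, and 0.25 without control 2. The PFKP count of control 2, 17213, was the highest of the 16 libraries before any scaling as well.

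PFKP varied with the smooth muscle markers. Across the 16 libraries its log2 CPM and the mean log2 CPM of the list gave Pearson's r = 0.87 (permutation p = 2e-05) and Spearman's rho = 0.81 (permutation p = 0.0004). Adjusted over the 78 relations between 6 genes and 13 marker lists, the p-values were 0.00156 and 0.0169. Without control 2 and control 9, the libraries farthest out in muscle markers, r was 0.74, and within the 6 control libraries it was 0.86 (exact permutation p = 0.0292). The acellular libraries, lowest in mean PFKP, summed to 13889 to 18843 CPM of muscle markers. Sham libraries had 38393 to 64754 CPM of them and PLATE libraries 30011 to 48965 CPM, both without overlap with acellular. Their part in the PFKP differences between groups was not tested. PFKP over PFKM had log2 ratios of 2.81, 2.76 and 2.38 in sham, 1.80, 2.54 and 1.83 in acellular and 2.50 to 2.58 in PLATE, and 1.60 (control 9) to 3.87 (control 2) in control. None of its 7 comparisons passed an exact permutation test after adjustment, the smallest p being 0.0571 for PLATE against acellular (adjusted 0.4), at a difference of 0.50.

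ALDOA encodes aldolase A, the isoform of muscle and most other tissues, which splits fructose 1,6-bisphosphate. Control libraries ran from 748 through a median of 978 to 2053 CPM. The sham libraries held 973, 824 and 792 CPM, the acellular libraries 620, 702 and 867 CPM, and the PLATE libraries 1455, 934, 1052 and 780 CPM. Control 2 and PLATE 1 were the highest libraries, acellular 6 was the lowest, and every pair of groups overlapped. Means were 1146 ± 486 CPM in control (SD, n = 6), 1055 ± 289 in PLATE (n = 4), 863 ± 97.0 in sham (n = 3) and 730 ± 126 in acellular (n = 3). Acellular against control gave a log2 fold change of -0.65 ± 0.308 (SE), with a 95% interval from -1.32 to 0.02 and an adjusted p of 0.827. Without control 2 it was -0.39. In edgeR's quasi-likelihood test the adjusted p was 0.926 without control 2 and 0.422 without control 9, the lowest control library. The ALDOA count of control 2, 22818, was below the 25265 of control 25 before scaling.

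ALDOA also varied with the smooth muscle list, with r = 0.64 (permutation p = 0.00661, adjusted 0.0397) and rho = 0.68 (permutation p = 0.00481, adjusted 0.0375). That relation rested in part on control 2 and control 9, without which r was 0.41. With the columnar epithelium list ALDOA had r = -0.76 (permutation p = 0.00349, adjusted 0.0247) but rho = -0.43 (permutation p = 0.0966, adjusted 0.29). Without control 2 and PLATE 1 this r was -0.15, so it rested on those libraries.

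BNIP3 encodes a protein of the outer mitochondrial membrane that marks mitochondria for removal and is a classic HIF-1 target. Control libraries ran from 54.02 through a median of 62.1 to 84.7 CPM. The sham libraries held 51.7, 54.9 and 62.5 CPM and the acellular libraries 70.2, 58.7 and 59.9 CPM. The PLATE libraries held 189, 46.8, 56.6 and 53.1 CPM. PLATE 1 was above every other library, while PLATE 5, at the other end of the same group, was the lowest of all 16. Means were 65.4 ± 11.3 CPM in control (SD, n = 6), 56.4 ± 5.55 in sham (n = 3), 62.9 ± 6.32 in acellular (n = 3) and 86.4 ± 68.7 in PLATE (n = 4). PLATE against control stood at a log2 fold change of 0.40 ± 0.317 (SE) with all libraries and at -0.32 without PLATE 1. PLATE against sham went from 0.62 to -0.11 and PLATE against acellular from 0.46 to -0.27 in the same way. Outside PLATE 1, BNIP3 lay between 46.8 and 84.7 CPM in all 15 libraries.

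ADM encodes adrenomedullin, a secreted peptide that widens vessels and is made by endothelium, smooth muscle and epithelium under low oxygen. Control libraries ran from 3.30 through a median of 13.3 to 30.8 CPM. The sham libraries held 9.73, 6.85 and 7.33 CPM, the acellular libraries 9.67, 3.23 and 6.41 CPM, and the PLATE libraries 16.9, 9.13, 7.17 and 5.90 CPM. Its counts, 48 in acellular 8 to 697 in control 16, were the fewest of the 6 genes. Control 16 was the highest library, but control 24 was almost as low as the lowest library, acellular 8, so the control range again held nearly all others. Means were 14.3 ± 9.50 CPM in control (SD, n = 6), 7.97 ± 1.55 in sham (n = 3), 6.44 ± 3.22 in acellular (n = 3) and 9.77 ± 4.92 in PLATE (n = 4). The 3 operated groups together stood at a log2 fold change of -0.85 ± 0.384 (SE) against control, with an unadjusted p of 0.0429, where 3.88% of all genes had one under 0.05. Without control 16 this value was -0.47.

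ADM varied with the immediate early list, genes such as FOS and EGR1 that are switched on within minutes of stress or handling. Pearson's r was 0.77 (permutation p = 0.00042, adjusted 0.00819) and rho was 0.73 (permutation p = 0.00215, adjusted 0.024). Without control 16 and control 25 r was 0.59, and within the control group it was 0.90 (exact permutation p = 0.00833). The 12 measured genes of that list summed to 366 to 8317 CPM in control libraries. Their highest sum was 858 CPM among sham libraries (lowest 534), 1638 CPM among PLATE libraries (lowest 385) and 4677 CPM, in acellular 6, among acellular libraries (lowest 439). ADM varied with the 4 measured erythroid markers as well, with r = 0.72 (permutation p = 0.00174, adjusted 0.0136). The rho of that relation was 0.79 (permutation p = 0.00044, adjusted 0.0169). Without control 16 and control 2 r was 0.56, and within the control group 0.81 (exact permutation p = 0.0458). The part of either list in the lower ADM values of operated tissue was not tested.

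**Figure D3:**
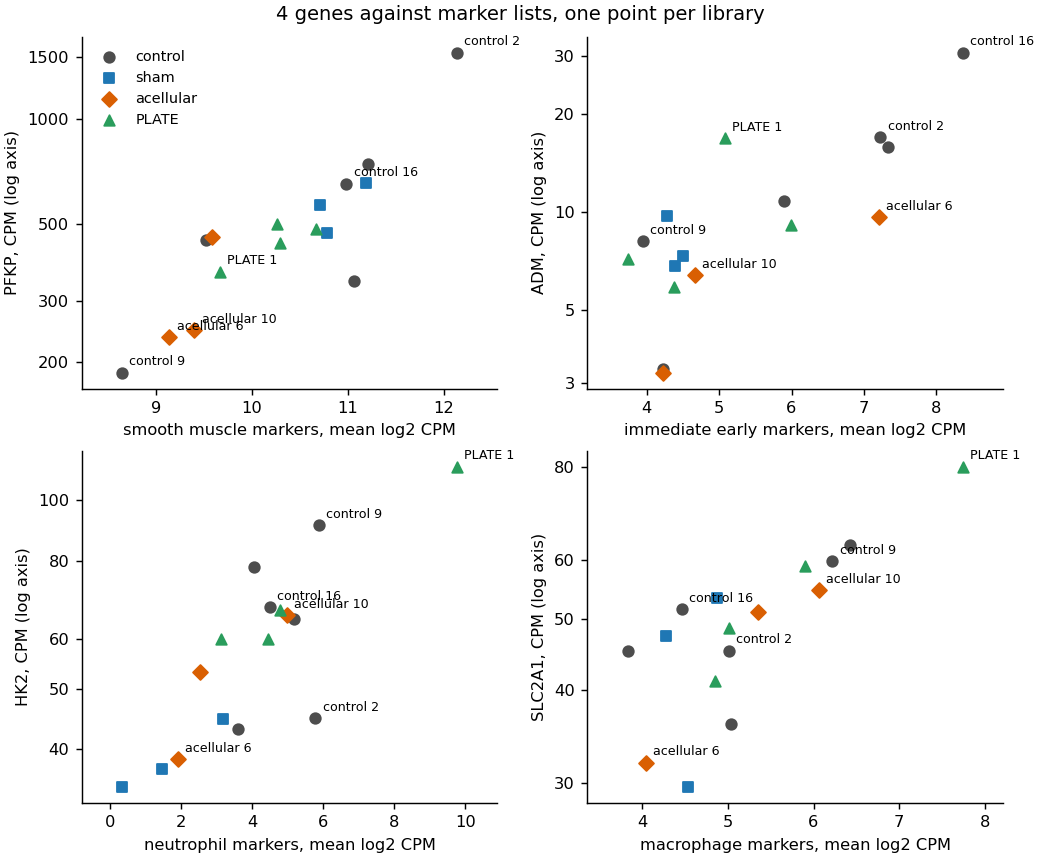
CPM of a gene on a log axis against the mean log2 CPM of a marker list, with 1 point per library coloured by group. PFKP lies along the smooth muscle list (r = 0.87), ADM along the immediate early list (r = 0.77), HK2 along the neutrophil list (r = 0.83) and SLC2A1 along the macrophage list (r = 0.78).

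SLC2A1 and HK2, the first steps of glucose use, varied with some of the leukocyte marker lists, but neither passed with the T and NK cell list. HK2 and the neutrophil list gave r = 0.83 (permutation p = 9e-05, adjusted 0.00351) and rho = 0.77 (permutation p = 0.00065, adjusted 0.0169). Without PLATE 1 and sham 14 r was 0.67, but within the control group it was 0.25 (exact permutation p = 0.589). SLC2A1 and the macrophage list gave r = 0.78 (permutation p = 0.00034, adjusted 0.00819) and rho = 0.74 (permutation p = 0.00155, adjusted 0.02015). Without PLATE 1 and control 24 r was 0.61, and within the control group 0.63 (exact permutation p = 0.183). In all, 14 of the 78 relations passed by Pearson's r and 11 by Spearman's rho. The 8 others that passed by r joined HK2 to the macrophage, B and plasma cell and cell cycle lists and SLC2A1 to the neutrophil list. They also joined PFKP to the skeletal muscle, erythroid and, with a negative sign, columnar epithelium lists, and ADM to the erythroid list, as given above. By rho, HK2 did not pass with the macrophage and B and plasma cell lists (adjusted permutation p 0.256 and 0.102). PFKP did not pass by rho with the erythroid and columnar epithelium lists (adjusted permutation p 0.107 and 0.362). HK2 and the B and plasma cell list had r = 0.43 without PLATE 1 and control 9. Within the control group HK2 had r = 0.73 with that list (exact permutation p = 0.0625). There it had 0.75 with the cell cycle list and 0.13 with the macrophage list (exact permutation p = 0.0903 and 0.768).

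ADM and BNIP3 passed by rho, but not by r, in a negative relation to the 9 measured endothelium markers. ADM had rho = -0.76 (permutation p = 0.00116, adjusted 0.0181) and r = -0.59 (permutation p = 0.0191, adjusted 0.0825), and r was -0.82 without acellular 6 and control 25 and -0.59 within the control group (exact permutation p = 0.211). BNIP3 had rho = -0.71 (permutation p = 0.00275, adjusted 0.0268) and r = -0.31 (permutation p = 0.158, adjusted 0.336). For BNIP3 r was -0.21 without acellular 6 and control 25, -0.82 without control 2 and PLATE 1, and -0.93 within the control group (exact permutation p = 0.0125). No marker of the 13 lists was at 0 in every library.

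Among the members themselves, 1 of 15 pairs varied together past the threshold. SLC2A1 and HK2 had r = 0.76 (permutation p = 0.00063, adjusted 0.00945), while rho = 0.70 missed it after adjustment (permutation p = 0.00361, adjusted 0.05415). The relation was 0.58 without PLATE 1 and sham 11 and 0.68 in the control group (exact permutation p = 0.143). PFKP and ALDOA, consecutive enzymes of the pathway, had r = 0.66 with an adjusted permutation p of 0.0561, and 0.31 without control 2 and control 9. None of the other 14 pairs passed.

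Their spread differed as well. Within the control group the SD of log2 CPM was 0.24 for BNIP3 and 0.30 for SLC2A1, smaller than for most genes, since 16.8% and 27.4% of all genes had a smaller SD. It was 0.43 for HK2 and 0.54 for ALDOA, near the median of 0.44 over all genes. PFKP at 1.04 and ADM at 1.09 were among the variable genes, with 83.8% and 84.9% of genes below them. Across the 16 libraries the highest level was 2.70 times the lowest for SLC2A1, 8.28 times for PFKP and 9.54 times for ADM. Group membership held 45.7% of the variance of HK2 and 6.81% of that of BNIP3, where the median gene had 18.4%.

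**Figure D4:**
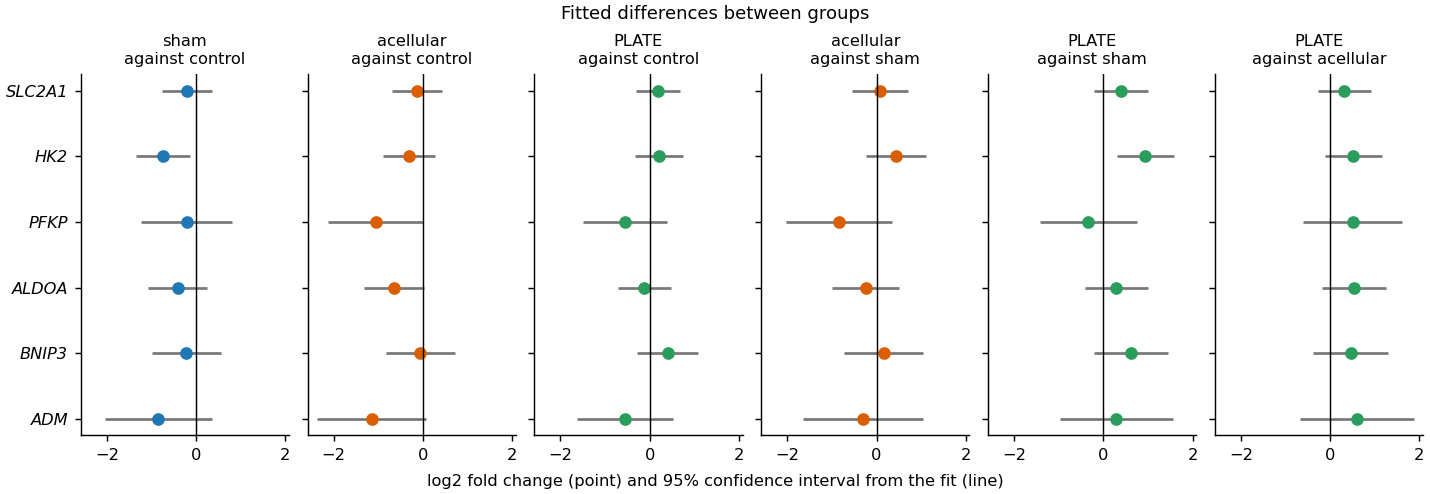
Log2 fold change of each of the 6 genes in the 6 comparisons between pairs of groups (points), with 95% confidence intervals (lines). The intervals were built from the standard errors of edgeR's quasi-likelihood fit with 12 degrees of freedom. The p-values came from the test and not from these intervals, so they can differ near 0. PFKP in acellular against control has an interval from -2.13 to 0.01 at an unadjusted quasi-likelihood p of 0.0474. HK2 in PLATE against sham is at 0.94 with an interval from 0.30 to 1.59, and no member passed the adjusted threshold.

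Taken by comparison, all 6 members had fitted values below control in sham (median log2 fold change -0.31) and in acellular tissue (median -0.48), where the medians over all genes were -0.06 and -0.03. Values below control were seen for 57.9% and 54.2% of all genes in these comparisons. Without control 2, 5 of the 6 were lower in sham, with a median of -0.21. In PLATE against control 3 members were higher and 3 lower, with a median of 0.04, where 47.7% of all genes were higher. Without PLATE 1 all 6 were lower in PLATE than in control, with a median of -0.32. PLATE values were above acellular values for all 6 members (median 0.51) and above sham values for 5 (median 0.34), where 52.4% and 52.6% of all genes were higher. Both rested largely on PLATE 1, without which 5 members were above acellular (median 0.22) and 3 above sham (median -0.0054). These comparisons share libraries and are not independent of each other. The groups of no member were apart in sham, acellular, PLATE or operated tissue against control, where 3.69%, 1.73%, 0.119% and 0.00914% of all genes were, nor in PLATE against acellular, with 4.97%. An unadjusted p under 0.05 was found for 0 of the 6 in PLATE against control, acellular against sham and PLATE against acellular, where 4.39%, 4.87% and 4.71% of all genes had one. In edgeR's joint test HK2 was the only member with one, at 0.0315 (adjusted 0.901), as had 4.8% of all genes. The 12 genes of the immediate early list were all lower than control in each operated group. Their medians were -2.64 in sham, -0.91 in acellular and -1.80 in PLATE, where 57.9%, 54.2% and 52.3% of all genes were lower. Control libraries ranged from 366 to 8317 CPM in their sum, and control 9 and control 24 lay below every sham library. The neutrophil list was higher in PLATE than in sham, with a median of 5.80 over 8 genes. PLATE 1 stood far above its group in that list, with a sum of 8660 CPM. The other PLATE libraries summed to 297 to 554 CPM and sham to 53.2 to 189 CPM.

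By Spearman's rho of log2 CPM over the 16 libraries, the genes most like each member were different for each of them. For SLC2A1 they were SFPQ, an RNA-binding protein of the nucleus (0.89), SLC12A9 (0.88) and the zinc transporter SLC30A7 (0.88). For HK2 they were TMEM183A (0.92), NFE2, a transcription factor of blood cell precursors (0.91), and DNAJC11 (0.90). For PFKP they were TGM2, tissue transglutaminase (0.97), the organic cation transporter SLC22A3 (0.94) and HSPB6, a small heat shock protein abundant in muscle (0.94). ALDOA was most like COPS3, a subunit of the COP9 signalosome (0.95), ACTR1A, an actin-related protein of dynactin (0.91), and the seryl-tRNA synthetase SARS1 (0.91). BNIP3 was most like the mitochondrial ribosomal protein gene MRPS35 (0.90), DUSP11 (0.86) and YAE1 (0.84). ADM was most like NARF (0.90), RNF5 (0.85) and SIAH2 (0.85), RNF5 and SIAH2 being ubiquitin ligases. These values describe the nearest of 10942 genes, and the median absolute rho over all genes was 0.21 to 0.32, depending on the member.

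The other genes of the pathway gave no call either. Of 28 other glycolysis genes 23 have a row and 21 were tested, and 0 passed the adjusted threshold of edgeR's test in any comparison. Against control, 18 of 21 were lower in sham (median log2 fold change -0.29, 1 with an unadjusted p under 0.05) and 17 in acellular tissue (median -0.22, 2 under 0.05). In PLATE, 11 were above and 10 below control (median 0.06, 4 under 0.05), 16 were above sham (median 0.37, 4 under 0.05) and 17 above acellular (median 0.29, 3 under 0.05). Over all genes the shares under 0.05 in these 5 comparisons were 2.98%, 6%, 4.39%, 7.5% and 4.71%. Without PLATE 1, 15 of the 21 were below control (median -0.13), 15 were above sham (median 0.23) and 16 above acellular (median 0.18), with 1, 0 and 0 under 0.05.

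The 3 glycolysis genes nearest to a group difference were low everywhere but in PLATE 1. SLC16A3, the lactate exporter MCT4, was at 52.97 CPM in PLATE 1 and between 0.206 and 2.60 CPM in the other 15 libraries. Its log2 fold change of 4.53 ± 1.43 (SE) in PLATE against sham had an adjusted p of 0.657, and was 0.94 without PLATE 1. HK3, the hexokinase of myeloid cells, was at 30.5 CPM in PLATE 1 and 0.453 to 5.92 CPM elsewhere, and its 2.90 ± 1.08 in PLATE against sham was 1.19 without PLATE 1. ENO2, the enolase of neurons and endocrine cells, was at 18.5 CPM in PLATE 1 and 1.24 to 6.39 CPM elsewhere. The macrophage, neutrophil, B and plasma cell and cell cycle sums of PLATE 1 given above stand beside these levels, and their part was not tested.

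Of 36 other hypoxia-induced genes 31 have a row and 30 were tested, with 0 called. In PLATE against sham 22 were higher (median 0.25, 2 with an unadjusted p under 0.05), and in the operated groups against control 19 were lower (median -0.04, 2 under 0.05). Over all genes 52.6% were higher and 7.5% under 0.05 in PLATE against sham, and 55.4% lower and 3.88% under 0.05 in the operated groups, so that the counts under 0.05 lay near the background. Without PLATE 1, 12 of the 30 were above sham, with a median of -0.061. HMOX1, the stress-induced heme oxygenase, was at 8.71, 9.38 and 9.02 CPM in sham and at 107.4, 14.9, 19.4 and 17.2 CPM in PLATE. These groups did not overlap, as was so for 14.9% of all genes. The log2 fold change was 2.13 ± 0.719 (SE), with an adjusted p of 0.657 in edgeR's quasi-likelihood test, and was 0.92 without PLATE 1. CA9, the HIF-1 target carbonic anhydrase 9, ran from 1.76 to 42.6 CPM in control and from 1.33 to 13.7 CPM in the operated libraries, a log2 fold change of -1.63 ± 0.573. ANGPTL4, a secreted inhibitor of lipoprotein lipase, stood at -1.64 ± 0.525 in the operated groups, with 27.2 CPM in control 24 and 21.96 CPM in control 29 against 1.00 to 8.19 CPM in the other 14 libraries.

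The HIF machinery, 12 of 16 genes with a row, had 0 called. EPAS1, which encodes HIF-2 alpha, stood at -0.78 ± 0.36 (SE) in acellular against control, and CUL2, the cullin of the von Hippel-Lindau ubiquitin ligase, at -0.28 ± 0.12 in the operated groups. CITED2, a HIF-induced competitor of HIF for its coactivator, was at 87.4 CPM in acellular 6 and 9.95 and 6.91 CPM in the other acellular libraries. PLATE against acellular was accordingly -1.42 for CITED2 with acellular 6 and 0.63 without it. HIF1A itself ran from 324 to 866 CPM over the 16 libraries.

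Genes of pyruvate entry and gluconeogenesis (15 of 20 with a row, 13 tested) had 0 called. PDK4, the kinase that shuts pyruvate dehydrogenase in fasting and fat-burning tissue, had the smallest p of this list. Sham libraries held 9.73, 10.3 and 17.4 CPM, below all 6 control libraries at 20.8 to 131 CPM and below all 3 acellular libraries at 43.3 to 53.5 CPM. Acellular lay above sham without overlap for 7.82% of all genes. PLATE libraries held 5.89, 43.2, 32.5 and 44.2 CPM, with PLATE 1 the lowest of the 16. Sham against control gave a log2 fold change of -2.53 ± 0.702 (SE), an unadjusted p of 0.00256 and an adjusted p of 0.963, where 1.79% of all genes were non-overlapping and lower in sham. PDK3, another kinase of the same enzyme, was 0.75 ± 0.325 higher in PLATE than in sham. Its groups did not overlap there, as was so for 14.9% of all genes. PDHX, a structural subunit of the complex, was at -0.35 ± 0.185 in sham against control.

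Of 6 adrenomedullin receptor and processing genes 4 have a row, and 0 were called. CALCRL, a part of the adrenomedullin receptor, ran from 30.5 to 122 CPM over the 16 libraries, and was highest outside the control group. ACKR3, which takes adrenomedullin up and removes it, stood at -0.63 ± 0.298 (SE) in acellular against control, and PAM, which amidates the peptide, at 0.49 ± 0.291. In PLATE against sham the list had a median of 0.11.

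**Figure D5:**
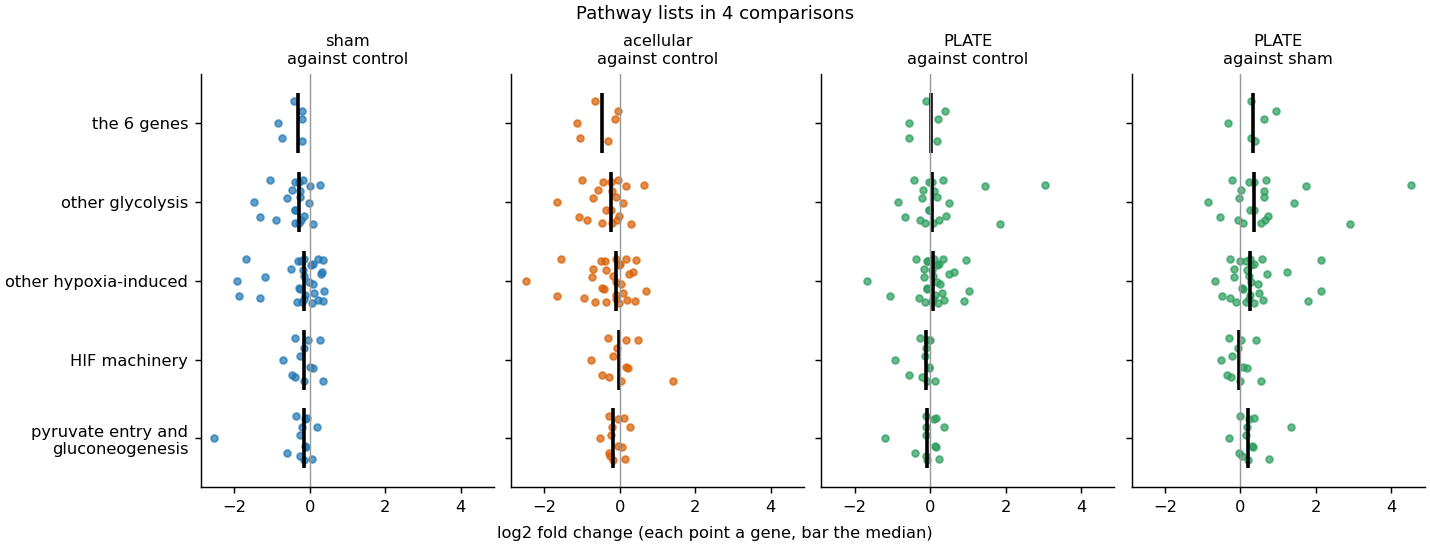
Log2 fold changes of the 6 genes and of 4 lists of related pathway genes in 4 comparisons, with 1 point per gene and a bar at the list's median. The median of the 6 genes is -0.48 in acellular against control and 0.34 in PLATE against sham (-0.0054 without PLATE 1), SLC16A3 is the point farthest to the right at 4.53, and no gene shown passed the adjusted threshold.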

How the data were processed

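Per the labels' protocols, the authors isolated RNA from frozen vaginal tissue, prepared stranded poly(A) libraries and sequenced them on an Illumina NovaSeq system. FastQC, HISAT2 2.2.1 and featureCounts are named in the submitters' processing notes. The genome build, the annotation and the strand setting of the counting are not given in the sources used here, so no coordinates are printed and reads of genes that overlap cannot be told apart. The deposited table holds the authors' whole-number read counts per gene symbol. Its line of reads without a symbol, 22.9 to 28.5% of a library, was left out of library sizes and tests.

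The counts were fitted with edgeR 4.0.16 (TMM, its default low-count filter, quasi-likelihood F test) in R 4.3.3 over all 16 libraries, with 1 mean per group and Benjamini-Hochberg adjustment over 10942 genes. Operated means the equally weighted mean of sham, acellular and PLATE. Log2 CPM used a prior count of 2, and isoenzyme ratios 0.5 added to each count. Standard errors and 95% intervals cover the spread between libraries, 1 per animal. Ratios were compared with exact permutation tests, and correlations with 100000 permutations, in scipy 1.17.1. DESeq2 1.42.0, limma 3.58.1 (voom with quality weights), DESeq2's size factors, no filter, only the groups compared and leaving out libraries were the alternatives. The script was tested on simulated data.

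The members and lists were chosen with earlier results of these data known. From each related list, the 3 genes with the smallest p of the joint test are named, as none was called, and for each member the 3 genes with the highest Spearman's rho. The relations to marker lists and the ratio PFKP over PFKM were chosen after seeing the data; HIF1A is named outside this rule.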

Additional observations from a re-analysis of the deposited data

Results flagged for a closer look

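HK2 in PLATE 1 had a log2 CPM of 6.82, and was flagged because its gap to the nearest other PLATE library was a large share of the range of the group, 0.833 against a 95% limit of 0.829 for 4 libraries. BNIP3 in PLATE 1 had a log2 CPM of 7.56, flagged in the same way with a gap share of 0.864. These were 2 of 16 sets of values tested, from the control and PLATE groups, and chance flags about 1 in 20. PLATE 1 also had the highest macrophage and neutrophil marker sums of the 16 libraries, 8829 and 8660 CPM. Also highest were its B and plasma cell, T and NK cell, cell cycle and endothelium sums, at 36580, 132, 463 and 1243 CPM. The part of these lists in the flagged values was not tested.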

How the results depend on the processing

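None of the 6 genes was called under any alternative run that gave an adjusted p. The smallest adjusted p of a member was 0.126, for HK2 in PLATE against sham with limma voom. DESeq2 gave SLC2A1, HK2, BNIP3 and ADM no adjusted p in acellular against control. Over all genes, where edgeR called 0, DESeq2 called 17 in acellular against control, 14 in PLATE against sham, 1 each in acellular against sham, PLATE against acellular and operated against control, and 1 in the joint test, and voom called 72 in acellular against sham. The cause was not tested. DESeq2's size factors, the absence of a low-count filter and a fit of only the groups compared changed no direction of a member.

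With limma voom, SLC2A1 turned to 0.027 in acellular against control and to -0.017 in PLATE against acellular, PFKP to 0.070 in sham against control, and ADM to -0.044 in PLATE against sham. BNIP3 turned to -0.23, -0.16, -0.064 and -0.17 in PLATE against control, operated against control, PLATE against sham and PLATE against acellular.

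Without control 2 and PLATE 1, PLATE against control became -0.052 for SLC2A1, -0.15 for HK2 and -0.31 for BNIP3, PFKP in sham against control 0.25, and ADM in PLATE against sham -0.12. BNIP3 became -0.17 in operated against control, -0.12 in PLATE against sham and -0.30 in PLATE against acellular. The log2 ratio HK2 over HK1 became -0.055 in acellular, -0.034 in PLATE and -0.29 in operated against control, and PFKP over PFKM 0.23 in sham and 0.12 in PLATE against control. With control 9 left out too, PLATE against control was -0.038 for HK2 and -0.35 for BNIP3, PFKP in sham against control 0.045, ADM in PLATE against sham -0.12, and BNIP3 -0.21, -0.12 and -0.30 in operated against control, PLATE against sham and PLATE against acellular. HK2 over HK1 was then -0.059 in operated against control and PFKP over PFKM 0.021 in sham against control.

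Leaving out each library in turn changed the sign of these values, given as lowest to highest. SLC2A1 ran from -0.38 to 0.022 in sham, -0.27 to 0.075 in acellular, -0.018 to 0.32 in PLATE and -0.13 to 0.040 in operated against control, and from -0.12 to 0.28 in acellular against sham. HK2 ran from -0.061 to 0.33 and ALDOA from -0.31 to 0.12 in PLATE against control, and PFKP from -0.41 to 0.25 in sham against control. BNIP3 ran from -0.14 to 0.034 in acellular, -0.32 to 0.61 in PLATE and -0.20 to 0.13 in operated against control, -0.11 to 0.82 in PLATE against sham and -0.27 to 0.66 in PLATE against acellular. ADM ran from -0.72 to 0.012 in acellular against sham and -0.11 to 0.47 in PLATE against sham, and CITED2 from -1.90 to 0.63 in PLATE against acellular. HK2 over HK1 ran from -0.055 to 0.37 in acellular and -0.20 to 0.23 in operated against control, and PFKP over PFKM from -0.23 to 0.23 in sham, -0.32 to 0.13 in PLATE and -0.45 to 0.010 in operated against control.

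No paired analysis was possible because the groups share fewer than 2 animal numbers: only 9 occurs in more than 1 group. The planned ratios LDHA over LDHB, SLC2A1 over SLC2A3 and PFKP over PFKL plus PFKM were not run, since LDHA, SLC2A3 and PFKL have no row under these symbols. The joint test and the operated groups against control have no value from a fit of only the groups compared. Standard errors of the members' log2 fold changes were 0.185 (operated against control, 10 against 6 libraries) to 0.618 (acellular against sham, 3 against 3). Differences of that size were not detectable, and some well above the standard error went uncalled too. HK2 in PLATE against sham, at 0.94 ± 0.296 (SE), had an adjusted p of 0.657 in edgeR's quasi-likelihood test. ADM, with 48 to 697 counts, had the largest standard errors of the 6.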
